A study of Mus musculus with 8 samples.

Results

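The mitosis, kinesin and kinetochore genes are 35 genes chosen by symbol for their roles in cell division, out of the 53465 gene identifiers in each file. Every member had at least 1 read in each of the 8 libraries. RNA was measured in sorted mouse regulatory T (Treg) cells from spleen and lymph nodes of mice bred to C57BL/6 and aged 3 to 4 weeks. There was 1 library for each condition. All mice carried R26 CAG-FlpoER, a tamoxifen (TAM) dependent Flp recombinase expressed from a ubiquitous promoter, and Brg1 (Smarca4, the ATPase of the BAF chromatin remodelling complex) was removed by Cre made from the X-linked Foxp3 locus, so in Treg cells. The library labelled WT came from Brg F/+ Foxp3 YFP-Cre/+ mice, which keep 1 intact Brg1 allele. Mosaic females (Brg F/ΔR) gave 2 libraries, from cells that had inactivated the Cre-bearing X chromosome (mosaic sufficient, Foxp3 +/+ in the label) and from cells that expressed YFP-Cre (mosaic deleted). The reversible knockout mice (rKO1, Brg F/ΔR Foxp3 YFP-Cre/YFP-Cre) carry ΔR, a gene-trapped null allele marked by GFP that Flp returns to a working allele with loss of GFP. They gave an untreated library and, on day 7 after TAM, a Brg1 deleted library (GFP+) and a Brg1 reexpressed library (GFP-), the latter labelled Brg F/+. The paper states that mice with ΔR were made on a mixed strain background. They were backcrossed to C57BL/6 for 3 generations, against more than 8 for the other strains. The part of strain background in the differences was not tested. A second experiment sorted activated Treg cells (aTreg, CD44 high and CD62L low) of rKO1 mice on day 7 after TAM into a deleted and a reexpressed library. The number of mice in a library is not given in the sources used here.

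To divide, a cell raises cyclin A and cyclin B, which switch on the kinase CDK1. The chromosomes then condense, kinetochores form on their centromeres and capture spindle microtubules, and kinesin motors move the chromosomes and build the spindle. A checkpoint holds the anaphase promoting complex until every kinetochore is attached, after which the sister chromatids part and the cell cleaves. Messenger RNAs of these genes peak together in G2 and M phase, through DNA sequences near their start sites that the DREAM and MuvB-FOXM1 complexes read, and their sum in a sorted population is therefore commonly used as a sign of how many cells are cycling. In bulk RNA, more dividing cells and more RNA per dividing cell cannot be told apart.

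Levels below are FPKM (fragments per kilobase of exon, scaled to a library total) recomputed from the recovered reads with TMM totals, a trimmed mean that equalises libraries over their shared genes, separately in the 6 total Treg and the 2 aTreg libraries. The deposited total Treg FPKM were scaled to totals between 0.852 and 1.13 of the reads on genes and between 0.946 and 1.02 of the TMM totals. Reads on genes, recovered from the FPKM, ran from 15644556 to 23222969 in the total Treg and from 17436223 to 19975022 in the aTreg libraries. The aTreg and total Treg libraries were made apart and are not compared in level. With 1 library for each condition no difference has a replicate check and no p-value is given. Folds carry exact 95% binomial intervals from the recovered reads, which cover counting error only. Intervals were computed for the members and the listed genes only. A count of members whose interval excludes 1 thus has no share over all genes beside it. Genes with at least 5 CPM (reads scaled to library size) in either library of a comparison were kept for counts, and a gene was counted as changed at 2-fold. A gene could thus be kept through the library in which it was higher, and a gene low in both was left out. Treg genes were present in every library, with Foxp3 between 62.1 CPM (aTreg reexpressed) and 557 CPM (mosaic sufficient). The 4 thymocyte genes summed to between 0 and 14 reads a library, nearly all of Dntt, with Rag2 and Ptcra at 0 reads in all 8. Smarca4 stood at 91.4 CPM in WT, 80.1 in mosaic sufficient, 49.0 in mosaic deleted, 45.8 in untreated rKO1, 37.5 in rKO1 TAM deleted and 60.4 in rKO1 TAM reexpressed, and at 71.2 and 59.4 in the aTreg deleted and reexpressed libraries. In the 6 total Treg libraries the 3 labelled deleted or untreated rKO1 were thus below the other 3, although a trapped or floxed transcript may still give reads outside the removed exons. In aTreg the total went against the labels, being lower in the library labelled reexpressed. The library labelled aTreg deleted also carries a WT header and the genotype Brg F/F, against the ΔR allele its title implies. Each aTreg direction below follows the labels and would turn if they were exchanged. If the library labelled deleted came from mice of another genotype, the comparison would be between genotypes and not within rKO1. The labels do not settle this. The 4 Y-linked genes Ddx3y, Uty, Kdm5d and Eif2s3y had 0 reads in WT and both mosaic libraries. They had 1356 to 4155 summed reads in the 5 libraries titled rKO1, although the labels give these 2 copies of the X-linked Foxp3 YFP-Cre. Comparisons of rKO1 with WT or mosaic libraries therefore cannot be told apart from a difference in sex. Among the 5 libraries titled rKO1 the summed Y-linked level also differed, at 226 CPM in untreated, 118 in TAM deleted and 87.9 in TAM reexpressed cells. It was 160.4 and 68.9 CPM in the libraries labelled aTreg deleted and reexpressed, and its part in those comparisons was not tested.

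All 35 members were highest in the rKO1 TAM reexpressed library among the 6 total Treg libraries. For 29 the gap to the next library was 2-fold or more. The gaps ran from 1.15-fold (Kif11) to 4.32-fold (Prc1), with a median of 2.76-fold. Among the 11095 genes with at least 5 CPM in a total Treg library, 26.6% were highest in this library and 3.22% also led the next by 2-fold. The summed level of the members was 2554 CPM there, against 751 in WT, 440.3 in mosaic sufficient, 348 in mosaic deleted, 618 in untreated rKO1 and 821 in rKO1 TAM deleted. Relative to its own mean over the 6 libraries, the median member stood at 2.73 in the reexpressed library, 0.908 in rKO1 TAM deleted, 0.813 in WT, 0.615 in untreated rKO1, 0.442 in mosaic sufficient and 0.409 in mosaic deleted. The second place went to rKO1 TAM deleted for 19 members and to WT for 14, and the lowest place to mosaic deleted for 21 and to mosaic sufficient for 12. With 1 library each, the order of these neighbours carries no more than the counting intervals given below.

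**Figure D1:**
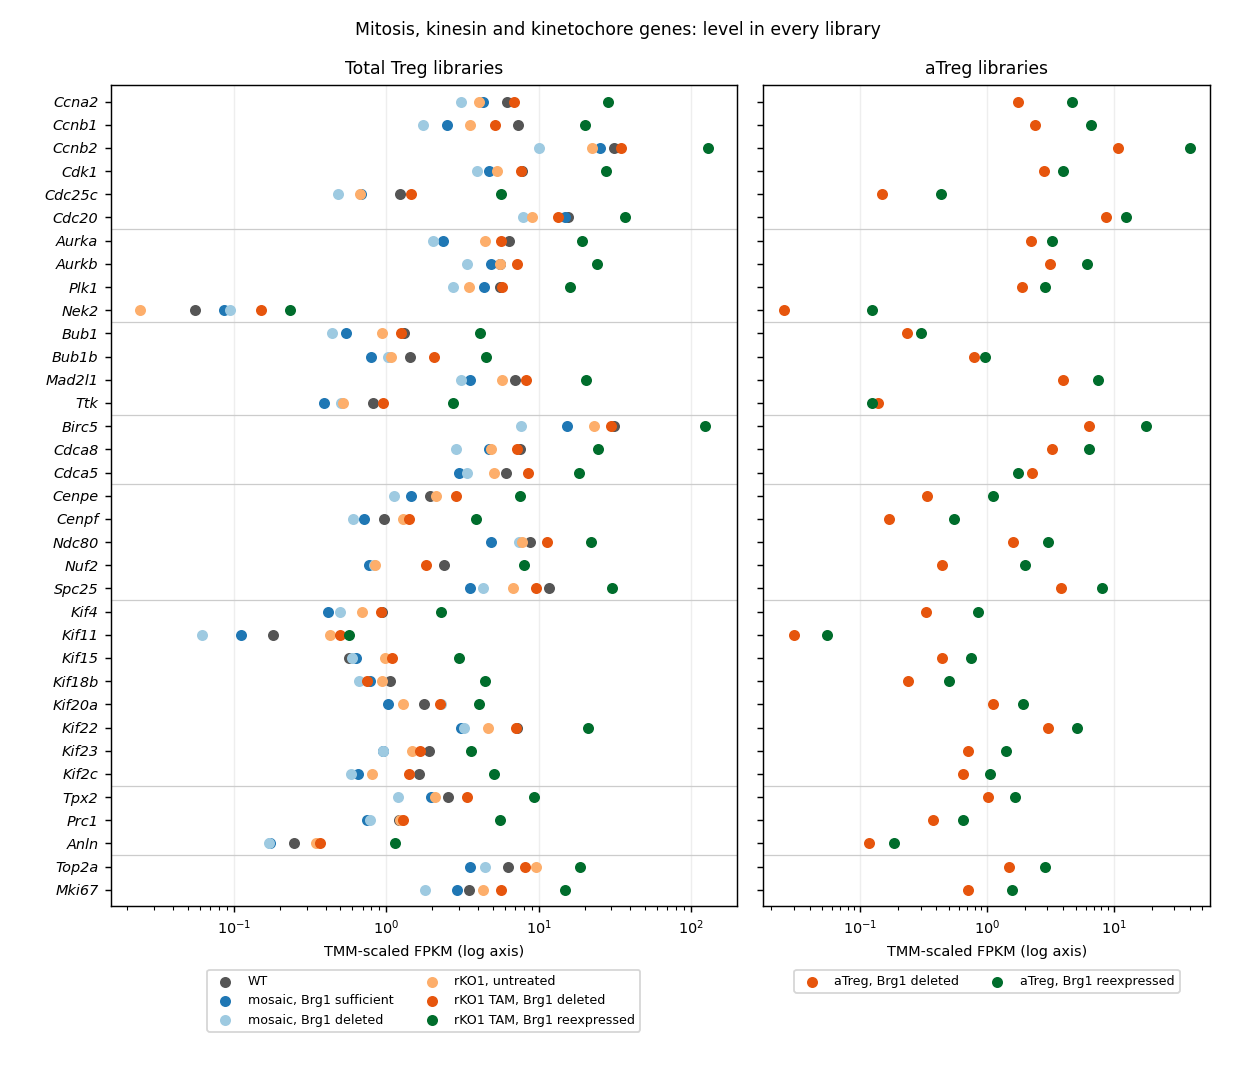
TMM-scaled FPKM (log axis) of the 35 members in the 6 total Treg libraries (left) and the 2 aTreg libraries (right), 1 point a library, with grey lines between roles. In the left panel the rKO1 TAM reexpressed point lies to the right of the other 5 in all 35 rows, and in the right panel 33 of 35 members were higher in the library labelled reexpressed.

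The comparison within TAM-treated rKO1 mice sets GFP- cells, labelled Brg1 reexpressed, against GFP+ cells of the same treatment, labelled deleted. The paper states that GFP faded gradually after TAM and was much reduced by day 7. The cells were thus split by remaining GFP and not by Brg1 itself. The part of this gate in the members' difference was not tested. All 35 members were higher in the reexpressed library, and the counting interval lay above 1 for 33. At 5 CPM 33 members were kept, of which 31 were at least 2-fold higher and 0 lower, beside 7.16% of all 10341 genes higher and 5.64% lower. Their median log2 fold was 1.58, against 0.06 over all genes, and the 41129 summed reads in the reexpressed against 14461 in the deleted library gave 3.11-fold (3.05 to 3.17) in summed CPM. In the deleted library 29 members reached 5 CPM, so the rest of the 33 were kept through the reexpressed library. With no filter 31 of 35 were at least 2-fold higher, at a median of 1.52. Of the members, 13 were shown by the study in these libraries and are no independent evidence of the direction. Without them, 18 of 20 were at least 2-fold higher, with a median of 1.47. These 20 were measured in the same 2 libraries and were also chosen with earlier results of these data known. Just under the threshold stood Ndc80 (0.97 log2) and Kif20a (0.84), and just above it Kif23 (1.10) and Cdca5 (1.12). With library totals in place of TMM, 25 of 33 remained past 2-fold, at a median of 1.23, while the median of all genes fell to -0.30, and of all genes past 2-fold the share that was higher went from 55.9% to 22.9%. Relative to the median of all genes the members stood at 1.51 under TMM and 1.52 under library totals. Of the markers of other cells, the summed erythroid, myeloid and CD8 T or NK genes were lower in the reexpressed library (399 against 656, 40.5 against 91.9 and 12.4 against 24 CPM), for 6 of 6, 4 of 5 and 4 of 5 genes, with Ncr1 at 0 reads there. Summed plasma cell genes were lower as well (13.7 against 30.6 CPM, for 3 of 4 genes). Summed B cell genes were higher (27.7 against 18.2 CPM) through Cd79b, while Cd79a, Ms4a1 and Pax5, 3 of the 5, were lower, with Pax5 at 0 reads. The part of these cells in the members' difference was not tested.

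The cyclins and CDK1 with its activators had the highest median of the roles, 1.92, and all 6 were at least 2-fold higher. Ccnb2, a cyclin B that partners CDK1, stood at 31.2 in WT, 25.4 in mosaic sufficient, 10.1 in mosaic deleted, 22.2 in untreated rKO1, 34.9 in rKO1 TAM deleted and 129.6 in rKO1 TAM reexpressed, in FPKM. The reexpressed library was 3.72-fold (3.45 to 4.00) above rKO1 TAM deleted, the next highest. Ccnb1, the cyclin B needed for entry into mitosis, stood at 7.31 in WT, 2.50 in mosaic sufficient, 1.75 in mosaic deleted, 3.56 in untreated rKO1, 5.20 in rKO1 TAM deleted and 20.2 in rKO1 TAM reexpressed. Ccna2, the cyclin of S phase and G2, stood at 6.20 in WT, 4.30 in mosaic sufficient, 3.08 in mosaic deleted, 4.05 in untreated rKO1, 6.87 in rKO1 TAM deleted and 28.5 in rKO1 TAM reexpressed. Between the 2 TAM libraries Ccna2 differed 4.15-fold (3.76 to 4.60) and Ccnb1 3.88-fold (3.46 to 4.36). Cdk1, the kinase itself, stood at 7.72 in WT, 4.71 in mosaic sufficient, 3.94 in mosaic deleted, 5.33 in untreated rKO1, 7.64 in rKO1 TAM deleted and 27.6 in rKO1 TAM reexpressed, a difference of 3.62-fold (3.31 to 3.95) between the TAM libraries. WT and rKO1 TAM deleted lay close together for Cdk1. Cdc25c, a phosphatase that activates CDK1, was 3.85-fold (2.80 to 5.38) higher on 176 against 50 reads. Cdc20, the activator of the anaphase promoting complex, stood at 15.7 in WT, 15.0 in mosaic sufficient, 7.83 in mosaic deleted, 9.0 in untreated rKO1, 13.3 in rKO1 TAM deleted and 36.7 in rKO1 TAM reexpressed, and its 2.76-fold (2.47 to 3.09) was the smallest of the role.

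The chromosomal passenger complex places Aurora B at the centromere and later at the cleavage furrow. Birc5 (survivin), one of its subunits and an inhibitor of apoptosis protein by family, had the most reads of the members, 6797 against 1792 reads in the reexpressed and deleted TAM libraries. Its level was 31.2 in WT, 15.3 in mosaic sufficient, 7.68 in mosaic deleted, 23.1 in untreated rKO1, 29.9 in rKO1 TAM deleted and 124 in rKO1 TAM reexpressed. The reexpressed library was 4.15-fold (3.94 to 4.37) above the deleted one, and WT and rKO1 TAM deleted lay close together. Cdca8 (borealin), another subunit, was 3.39-fold (3.10 to 3.71) higher and Aurkb, the kinase of the complex, 3.33-fold (2.96 to 3.75). Cdca5 (sororin), which protects cohesin on replicated chromatids, differed less, 2.17-fold (1.89 to 2.49). Among the other mitotic kinases, Aurka, which matures the spindle poles, was 3.41-fold (2.96 to 3.95) higher and Plk1, which acts from entry to cleavage, 2.80-fold (2.39 to 3.28). Nek2, a centrosome kinase, was under 5 CPM in every library, and its 17 against 12 reads gave 1.55-fold (0.697 to 3.55), an interval that includes 1.

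The kinetochore members divided. Nuf2, Ndc80 and Spc25 are subunits of the NDC80 complex, the microtubule grip of the outer kinetochore. Nuf2 (ENSMUSG00000026683, chr1:169497934-169531464 in GRCm38, minus strand) stood at 2.39 in WT, 0.765 in mosaic sufficient, 0.830 in mosaic deleted, 0.849 in untreated rKO1, 1.84 in rKO1 TAM deleted and 8.05 in rKO1 TAM reexpressed. It was 4.38-fold (3.76 to 5.13) higher in the reexpressed than in the deleted TAM library, the largest fold of the role. Ndc80 (ENSMUSG00000024056, chr17:71496100-71526857, minus strand) stood at 8.74 in WT, 4.90 in mosaic sufficient, 7.43 in mosaic deleted, 7.76 in untreated rKO1, 11.3 in rKO1 TAM deleted and 22.1 in rKO1 TAM reexpressed. Its 1.96-fold (1.74 to 2.20) was the smallest of the role, and the counting intervals of Nuf2 and Ndc80 do not overlap. The Ndc80 reads and interval rest on an exon length of 2201 bases, the smallest giving whole reads, in place of the annotated 6493. Spc25 lay between, with 11.7 in WT, 3.52 in mosaic sufficient, 4.33 in mosaic deleted, 6.81 in untreated rKO1, 9.64 in rKO1 TAM deleted and 30.4 in rKO1 TAM reexpressed and 3.16-fold (2.86 to 3.49) between the TAM libraries. Cenpe, a kinesin that carries chromosomes to the spindle equator, was 2.61-fold (2.33 to 2.93) higher and Cenpf, a large kinetochore protein of late G2, 2.73-fold (2.43 to 3.08). The checkpoint genes lay between 1.13 and 1.72 log2: Bub1, the kinetochore kinase that recruits the others, was 3.29-fold (2.60 to 4.19) higher, Ttk (MPS1), the kinase that starts the signal, 2.88-fold (2.22 to 3.76), Mad2l1, the inhibitor of CDC20, 2.48-fold (2.32 to 2.66) and Bub1b (BUBR1) 2.19-fold (1.80 to 2.67).

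The 8 mitotic kinesins had the widest range, 0.20 to 2.57 log2. Kif18b (ENSMUSG00000051378, chr11:102905529-102925124, minus strand), a plus-end motor that shortens astral microtubules, stood at 1.05 in WT, 0.782 in mosaic sufficient, 0.659 in mosaic deleted, 0.944 in untreated rKO1, 0.747 in rKO1 TAM deleted and 4.43 in rKO1 TAM reexpressed. The first 5 values lie within a narrow band and the last apart from it, 5.93-fold (4.33 to 8.28) above rKO1 TAM deleted on 255 against 47 reads, the highest fold of the members. Kif2c (MCAK), a microtubule depolymerase at the centromere, was 3.63-fold (2.92 to 4.55) higher and Kif22, a chromosome arm motor, 2.98-fold (2.72 to 3.28). Kif15, a spindle motor that can act beside KIF11, was 2.74-fold (2.33 to 3.22) higher and Kif4, a chromosome motor of the central spindle, 2.48-fold (1.92 to 3.21). Kif23, the motor subunit of centralspindlin in the cleavage furrow, was 2.15-fold (1.83 to 2.53) higher. Kif20a, a late mitotic motor of the central spindle, stood at 1.77 in WT, 1.02 in mosaic sufficient, 2.29 in mosaic deleted, 1.29 in untreated rKO1, 2.26 in rKO1 TAM deleted and 4.04 in rKO1 TAM reexpressed. Its 1.79-fold (1.45 to 2.20) was the lowest fold of the members kept, and mosaic deleted held its second highest level. Kif20a shares 29.3% of its exon bases with another gene, so reads of its neighbour may be among those counted. Its reads also rest on an exon length of 3796 bases, the smallest giving whole reads, in place of the annotated 4338. Kif11 (EG5), the motor that separates the spindle poles, stood at 0.182 in WT, 0.112 in mosaic sufficient, 0.0621 in mosaic deleted, 0.429 in untreated rKO1, 0.495 in rKO1 TAM deleted and 0.567 in rKO1 TAM reexpressed. It was under 5 CPM throughout, the deposited FPKM gave whole reads with an exon length of 4817 bases in place of the 7461 of the annotation used here, and 44 against 42 reads gave 1.15-fold (0.733 to 1.79). Its 3 rKO1 values were above the WT and mosaic values, as they were for 9 members in all (Anln, Aurkb, Cenpe, Cenpf, Kif11, Kif15, Mki67, Prc1 and Top2a). The share of all genes with this order was not counted, so it is not given as a trait of the members. It also cannot be told apart from the difference in sex between these libraries.

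Among the spindle and cytokinesis members, Prc1, which bundles microtubules of the central spindle, stood at 1.20 in WT, 0.745 in mosaic sufficient, 0.785 in mosaic deleted, 1.24 in untreated rKO1, 1.28 in rKO1 TAM deleted and 5.55 in rKO1 TAM reexpressed and differed 4.32-fold (3.67 to 5.10) between the TAM libraries. Anln (anillin), a scaffold of the contractile ring, was 3.08-fold (2.27 to 4.21) higher and Tpx2, an activator of Aurora A on the spindle, 2.76-fold (2.40 to 3.19). Top2a, the topoisomerase that untangles sister chromatids, stood at 6.31 in WT, 3.55 in mosaic sufficient, 4.45 in mosaic deleted, 9.58 in untreated rKO1, 8.11 in rKO1 TAM deleted and 18.7 in rKO1 TAM reexpressed. It was the member for which untreated rKO1 came second, and the reexpressed library was 2.30-fold (2.15 to 2.46) above rKO1 TAM deleted. Mki67, which coats mitotic chromosomes and is the common label of cycling cells, stood at 3.48 in WT, 2.91 in mosaic sufficient, 1.79 in mosaic deleted, 4.34 in untreated rKO1, 5.63 in rKO1 TAM deleted and 14.8 in rKO1 TAM reexpressed, 2.63-fold (2.45 to 2.84) higher in the reexpressed than in the deleted TAM library. Both chromosome genes lay below the members' median.

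**Figure D2:**
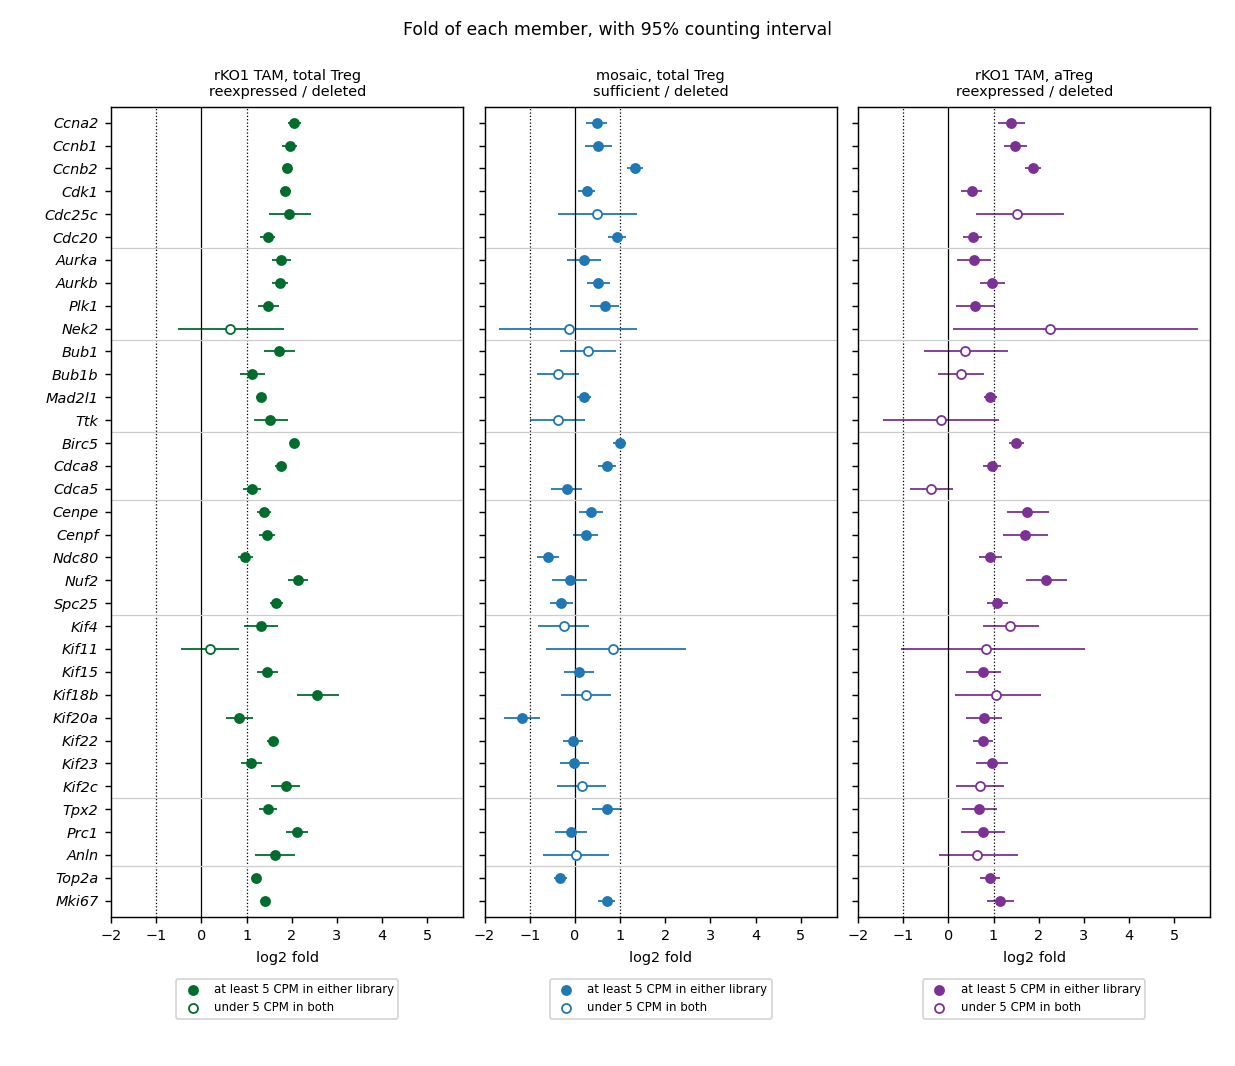
Log2 fold of each member (points, filled where either library had at least 5 CPM) with its 95% counting interval (lines) in the rKO1 TAM, mosaic and, as labelled, aTreg comparisons; dotted lines mark 2-fold. All 35 points lie right of 0 in the rKO1 TAM panel, 22 in the mosaic panel and 33 in the aTreg panel.

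Since members moved together, their promoters were read. Windows of 300 bases (250 before to 50 after the start, RefSeq, GRCm38.p6) were found for 30 of the 35. The cell cycle homology region (CHR), TTTGAA on either strand, occurred in 23 of these 30 (76.7%), against 18.1% of the 27025 promoters of all genes. The CCAAT box, CCAAT on either strand, occurred in 22 (73.3%), against 37.9% of all, and both in 18 (60.0%), against 7.12%. A DNA replication type E2F site, written TTTNNCGC on either strand, occurred in 3 (10%), against 5.27%, and TATAAA in 1 (3.33%), against 14.2%. The 27025 promoters were not limited to genes with at least 5 CPM, unlike the shares of all genes given elsewhere. Matches of different motifs may share bases at their edges, each motif was counted on its own, and a match is a match of letters only. The 200 bases before the start are shown for the members with the highest (Kif18b, Nuf2) and lowest (Ndc80, Kif23) folds among those kept whose window was used, and for Cdk1 and Top2a, chosen after their matches were seen. CHR and CCAAT matches are in capitals, on either strand.
Kif18b (GRCm38.p6, chr11:102925125-102925324, minus strand): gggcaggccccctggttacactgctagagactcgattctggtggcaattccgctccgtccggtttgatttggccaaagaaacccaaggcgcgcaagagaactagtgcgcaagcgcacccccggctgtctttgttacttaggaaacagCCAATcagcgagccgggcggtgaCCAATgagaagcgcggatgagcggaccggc
Nuf2 (GRCm38.p6, chr1:169531465-169531664, minus strand): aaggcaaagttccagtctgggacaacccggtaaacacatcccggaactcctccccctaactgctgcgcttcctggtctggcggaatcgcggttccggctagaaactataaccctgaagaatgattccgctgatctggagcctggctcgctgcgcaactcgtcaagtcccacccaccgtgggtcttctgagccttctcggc
Ndc80 (GRCm38.p6, chr17:71526858-71527057, minus strand): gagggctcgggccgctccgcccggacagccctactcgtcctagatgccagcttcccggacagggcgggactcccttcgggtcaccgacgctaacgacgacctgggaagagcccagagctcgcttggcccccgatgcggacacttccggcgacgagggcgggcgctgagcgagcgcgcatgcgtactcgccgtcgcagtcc
Kif23 (GRCm38.p6, chr9:61946800-61946999, minus strand): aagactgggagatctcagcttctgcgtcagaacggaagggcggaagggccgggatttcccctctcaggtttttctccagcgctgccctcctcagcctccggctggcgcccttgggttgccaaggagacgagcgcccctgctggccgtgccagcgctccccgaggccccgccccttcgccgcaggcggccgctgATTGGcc
Cdk1 (GRCm38.p6, chr10:69352913-69353112, minus strand): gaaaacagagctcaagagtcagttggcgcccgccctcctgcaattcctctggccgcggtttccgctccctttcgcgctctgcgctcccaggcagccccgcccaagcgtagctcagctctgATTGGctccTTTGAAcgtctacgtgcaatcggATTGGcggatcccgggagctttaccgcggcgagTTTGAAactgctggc
Top2a (GRCm38.p6, chr11:99024190-99024389, minus strand): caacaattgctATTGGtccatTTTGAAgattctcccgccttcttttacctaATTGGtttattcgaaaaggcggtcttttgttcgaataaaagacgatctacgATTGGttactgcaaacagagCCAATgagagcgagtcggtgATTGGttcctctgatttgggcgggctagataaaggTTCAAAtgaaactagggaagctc
Cdk1 carries 2 CHR and 2 CCAAT matches in this stretch and Top2a 2 and 5, while Nuf2 and Ndc80 carry none. Past the start, within the 300 bases, Ndc80, Kif18b and Kif23 each have a CHR, from bases 30, 4 and 3, while Nuf2 has none. Folds in the rKO1 TAM comparison were split by matches among the 28 kept members with a window. The 22 with a CHR anywhere in the 300 bases had a median log2 fold of 1.5 (0.97 to 2.57). The 6 without it had a median of 1.84 (1.31 to 2.13). The 20 with a CCAAT box had a median of 1.55 and the 8 without it 1.54. Only the exact letters in 1 window a gene were searched, and whether a match bears on the fold was not tested.

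The mosaic comparison sets Brg1 sufficient against deleted cells that shared the same hosts. Here 25 members were kept, of which 1 was at least 2-fold higher (Ccnb2) and 1 lower (Kif20a), beside 4.07% of all 10115 genes higher and 2.17% lower, shares close to the members' own. Their median log2 fold was 0.24, against 0.03 over all genes, and without the members shown by the study it was 0.037, with 8 higher and 8 lower. The summed CPM differed 1.27-fold (1.23 to 1.31). By roles, all 5 kept cyclin and CDK1 genes were higher, from 0.26 (Cdk1) to 1.33 (Ccnb2), as were the 3 kept kinases, from 0.21 (Aurka) to 0.66 (Plk1). Birc5 was 1.99-fold (1.80 to 2.20) higher, Cdc20 1.91-fold (1.67 to 2.19) and Ccnb2 2.52-fold (2.22 to 2.86). The kinetochore genes had 2 higher and 3 lower, at a median of -0.12, and the kinesins 1 higher and 3 lower. Kif20a was lower on 79 against 203 reads, 0.446-fold (0.339 to 0.581), and Ndc80 on 220 against 382 reads, 0.660-fold (0.556 to 0.781). Over all 35 members the counting interval lay above 1 for 13 and below 1 for 4 (Kif20a, Ndc80, Top2a and Spc25). How many of all genes have such an interval clear of 1 was not counted. With library totals the members' median was 0.11, and the share of higher among all genes past 2-fold went from 65.2% to 49.5%.

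The rKO1 TAM and mosaic comparisons have no library in common. The fold was larger in rKO1 TAM for 34 of 35 members, Kif11 being the exception, with a median difference of 1.44 log2. Across the 25 members kept in both comparisons the folds had a Pearson r of 0.52 and a Spearman rho of 0.40, beside 0.38 and 0.42 over the 9657 genes kept in both, and across all 35 members, low counts included, 0.30 and 0.37. Genes are not independent replicates and no test was made.

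**Figure D3:**
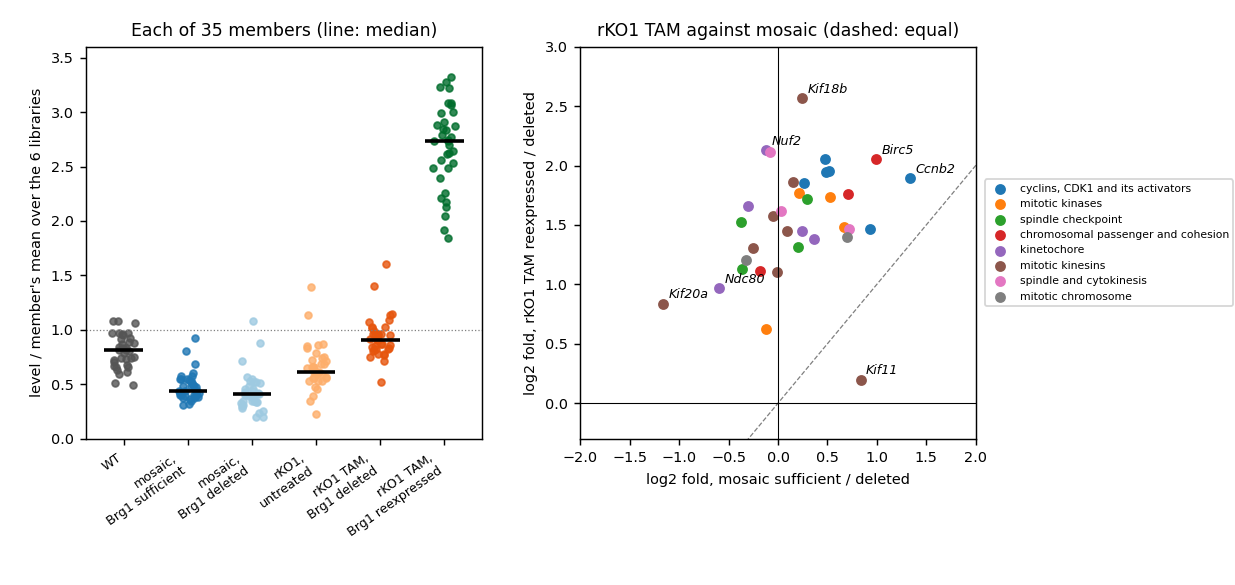
Left, the TMM-scaled level of each of the 35 members over its own mean in the 6 total Treg libraries (points, spread sideways at random; line, median). Right, log2 fold in the rKO1 TAM comparison against the mosaic comparison, coloured by role, where 34 of 35 points lie above the dashed line of equal folds.

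The other total Treg comparisons share libraries with those above and with each other, and their values are given side by side. The 2 libraries from mice without rKO1 disease that carry Brg1, WT and mosaic sufficient, differed themselves. WT was higher for 33 of 35 members, with 11 of 29 kept members at least 2-fold higher and 0 lower, beside 4.29% of 10175 genes higher and 5.12% lower, and with a median log2 fold of 0.83. Spc25 (3.33-fold, interval 2.86 to 3.90), Nuf2 (3.13-fold, interval 2.46 to 3.99) and Ccnb1 (2.93-fold, interval 2.49 to 3.45) differed most, while Cdc20 (1.05-fold, interval 0.923 to 1.18) and Aurkb (1.14-fold, interval 0.963 to 1.36) did not clear 1.5-fold. Both carry working Brg1 and come from different mice with different Brg1 and Foxp3 alleles. Myeloid marker genes summed to 403 CPM in WT and 120 in mosaic sufficient, led by Lyz2, and erythroid genes to 514 and 156. Treg genes summed to 1353 CPM in WT and 2386 in mosaic sufficient, lower in WT for 5 of 6 genes, with Foxp3 at 75.9 against 557 CPM. Their part in the difference was not tested.

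Untreated rKO1 cells, Brg1 deleted in sick hosts, lay between the controls. Against WT, 0 of 29 kept members were at least 2-fold higher and 3 were lower (Nuf2 -1.49, Ccnb1 -1.04 and Kif2c -1.03 log2), beside 8.67% of 10527 genes higher and 7.09% lower, at a median of -0.44. With library totals 1 was higher and 1 lower, at a median of -0.15. Of all 35, 26 were lower, whereas Top2a (0.60), Kif15 (0.79), Cenpf (0.41) and Mki67 (0.32) were higher. Against mosaic sufficient the median was 0.58, with 1 of 24 members (Top2a, 1.43) at least 2-fold higher, beside 8.37% of 10516 genes higher and 9.14% lower. With library totals 8 of 26 were at least 2-fold higher, at a median of 0.91. Against mosaic deleted, the comparison of Brg1 deleted cells from both kinds of host, 33 of 35 members were higher in rKO1 and 7 of 25 at least 2-fold, beside 8.26% of 10487 genes higher and 6.97% lower, at a median of 0.72. Those 7 were Birc5 (3.01-fold, interval 2.73 to 3.31), Mki67, Ccnb2, Aurka, Top2a, Cenpf and Ccnb1, and Kif20a was the lowest at -0.83. The direction of the median against the controls depended on which control was used. Marker sums of other cells moved with these comparisons. B cell genes were at 12.4 CPM in untreated rKO1, 76.8 in WT, 47.6 in mosaic sufficient and 55.1 in mosaic deleted. Taking these libraries in turn, myeloid genes gave 93.6, 403, 120 and 132 CPM, erythroid genes 472, 514, 156 and 143 CPM, and plasma cell genes 35.4, 15.4, 5.83 and 6.89 CPM. Their part in the differences was not tested.

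Brg1 deleted rKO1 cells were also compared with and without TAM. Of the kept members, 28 of 29 were higher after TAM, with 1 past 2-fold (Nuf2, 2.16-fold (1.69 to 2.78)), beside 2.10% of 10340 genes higher and 2.32% lower, at a median of 0.53, and Top2a was lower (-0.24). Summed CPM was 1.33-fold (1.3 to 1.36) higher. Against the controls, the reexpressed library was higher for all 35 members with every counting interval above 1. The median log2 fold was 1.69 over WT, with 32 of 33 at least 2-fold higher (Kif23 at 0.92 being the exception) beside 9.82% of 10362 genes higher and 7.48% lower. Over mosaic sufficient it was 2.51, with 33 of 33 at least 2-fold higher beside 11.0% of 10369 genes higher and 11.0% lower, from Cdc20 (1.29) to Nuf2 (3.39). In WT 29 members reached 5 CPM and in mosaic sufficient 23, so the rest were kept through the reexpressed library. With no filter 34 of 35 were at least 2-fold higher over WT and 35 of 35 over mosaic sufficient.

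In aTreg cells 24 members were kept, all 24 were higher in the library labelled reexpressed, and 9 were at least 2-fold higher and 0 lower, beside 4.40% of 10035 genes higher and 2.03% lower. Their median log2 fold was 0.95, against -0.06 over all genes, and summed CPM differed 2.10-fold (2.03 to 2.18), 551 against 262. In the library labelled deleted 16 members reached 5 CPM, so the rest of the 24 were kept through the library labelled reexpressed. Kif20a, at 4.80 CPM in the former, was kept because it stood at 8.28 in the latter. Cdca5, also at 4.80, stood at 3.71 and was left out. With no filter 33 of 35 members were higher, 13 of them at least 2-fold, at a median of 0.93. Without the members shown by the study 4 of 16 passed 2-fold, at a median of 0.93. The kinetochore genes had the highest median of the roles here, 1.70. Of these, Nuf2, Cenpe and Cenpf were kept through the library labelled reexpressed only, at 2.83, 2.88 and 2.60 CPM in that labelled deleted. Nuf2 stood at 0.446 in the library labelled deleted and 1.99 in that labelled reexpressed (4.48-fold, interval 3.29 to 6.19), Cenpe at 0.334 in the library labelled deleted and 1.13 in that labelled reexpressed (3.37-fold, interval 2.46 to 4.68) and Cenpf at 0.168 in the library labelled deleted and 0.546 in that labelled reexpressed (3.24-fold, interval 2.33 to 4.60). The B and A cyclins were also past 2-fold: Ccnb2 stood at 10.9 in the library labelled deleted and 39.9 in that labelled reexpressed (3.66-fold, interval 3.22 to 4.17), and Ccnb1 (2.79-fold, interval 2.35 to 3.33) and Ccna2 (2.63-fold, interval 2.15 to 3.24) differed by like amounts. Birc5 stood at 6.35 in the library labelled deleted and 17.9 in that labelled reexpressed (2.83-fold, interval 2.52 to 3.18), Mki67 at 0.708 in the library labelled deleted and 1.58 in that labelled reexpressed (2.23-fold, interval 1.80 to 2.76) and Spc25 at 3.83 in the library labelled deleted and 8.09 in that labelled reexpressed (2.11-fold, interval 1.80 to 2.49). The 3 kept kinases and 4 kept kinesins stayed under 2-fold, with medians of 0.59 and 0.78, and Cdk1 was lowest at 1.43-fold (1.22 to 1.69). Cdca5 (0.772-fold, interval 0.557 to 1.07) and Ttk (0.899-fold, interval 0.369 to 2.19) were the members not higher, both under 5 CPM with intervals that include 1. Top2a, Ndc80, Mad2l1, Cdca8, Kif23 and Aurkb lay just under the threshold, between 0.92 and 0.97 log2.

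Erythroid genes also moved with this comparison, although the cells were depleted of non-CD4 cells and sorted for CD4, CD25 and YFP. Their sum was at 21803 CPM in the library labelled aTreg reexpressed and 1146 CPM in that labelled deleted, all 6 of 6 higher, with 258 against 45 reads of Klf1, the erythroid transcription factor, and 6757 against 330 of Alas2, the first enzyme of erythroid heme synthesis. Plasma cell genes summed to 86.2 against 24.5 CPM, almost wholly through Jchain (1688 of 1697 reads in the library labelled reexpressed), while Sdc1 had 0 against 21 reads. Myeloid genes summed to 658 against 449 CPM and Treg genes to 1662 against 2277 CPM. In the 6 total Treg libraries the erythroid sum ranged from 143 to 656 CPM and was not highest in the reexpressed library. Their part in the aTreg result was not tested. In the TAM comparison of total Treg cells 29 of 35 members had a larger fold than in aTreg, by a median of 0.66 log2. Across the 24 members kept in both the folds had an r of 0.35 and a rho of 0.18, beside 0.31 and 0.37 over the 9543 genes kept in both, and across all 35 members 0.15 and 0.17.

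Other genes of division were counted from lists that hold no members, and their counts stand beside the 7.16% of all genes at least 2-fold higher and 5.64% lower in the rKO1 TAM comparison. In the rKO1 TAM comparison all 26 other kinetochore and centromere genes were higher, 14 of them at least 2-fold (median 1.13), led by Ska1 (2.03 log2), a microtubule coupler, with Cenpt, Mis12 and Hjurp between 0.03 and 0.09. All 17 other spindle and cytokinesis genes were higher, 14 at least 2-fold (1.34), led by Ckap2l (1.92) and Nusap1 (1.89). The other checkpoint, passenger and separation genes had 7 of 12 past 2-fold (1.16), with Trip13 (1.91), Sgo1 (1.72), the protector of centromeric cohesion, and Mad1l1 at -0.24. Of the 4 kept other mitotic kinesins 2 passed 2-fold, Kif14 (1.09) and Kif18a (1.06), while Kif20b (0.70) and the minus-end motor Kifc1 (0.10) did not. The 13 interphase transport kinesins, which carry cargo and not chromosomes, gave 0 in either direction and a median of -0.51, from Kif3a (-0.87) to Kif5c (0.48). Of the 17 condensin and cohesin genes 11 were higher and 6 lower, with 4 past 2-fold (median 0.20). The highest were the condensin subunits Ncaph (1.76), Ncapg (1.48) and Ncapg2 (1.40). The lowest were Nipbl (-0.56), Smc4 (-0.26), itself a condensin subunit, and Stag1 (-0.25). The anaphase promoting complex (2 of 18, 0.26) had its ubiquitin donor Ube2c (1.93) and its inhibitor Fbxo5 (1.5) past 2-fold. Of its 18 genes 12 were higher and 6 lower, the lowest being the subunits Anapc1, Cdc23 and Anapc2, between -0.25 and -0.39.

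Of the upstream and neighbouring groups in the same comparison, with the same shares over all genes, DNA replication genes were all 24 higher with 10 past 2-fold (median 0.94), led by Rrm2 (2.23), a ribonucleotide reductase subunit, and with Gins4 lowest (0.29). The CDK1 brakes and regulators had 7 of 11 past 2-fold (1.14), led by Pbk (1.68). The MuvB, FOXM1 and E2F factors had 5 of 23 past 2-fold (0.28), with the cell cycle regulated E2f8 (2.13), Mybl2 (1.84) and E2f7 (1.73) at the top and E2f5 (-0.92) at the bottom. CDK inhibitors and quiescence genes had 4 of 15 higher and 1 lower (-0.04), with Cdkn2a (2.05), Cdkn2c (1.57) and Cdkn1a (1.02) at the top and Foxp1 (-1.16), Btg1 (-0.84) and Klf2 (-0.83), all 3 known for T cell or general quiescence, at the bottom. G1 cyclins and kinases had 1 of 8 past 2-fold (0.47), Ccne2 (1.08). In aTreg, where 4.40% of all genes were at least 2-fold higher and 2.03% lower, other spindle and cytokinesis genes had 6 of 10 past 2-fold (median 1.38) and other kinetochore genes 7 of 21 (0.53). DNA replication genes had 1 of 23 (0.31), the checkpoint list 0 of 7 (-0.10) and Kifc1 was lower (-1.42). In the mosaic comparison the median of every one of these lists lay between -0.24 and 0.23.

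**Figure D4:**
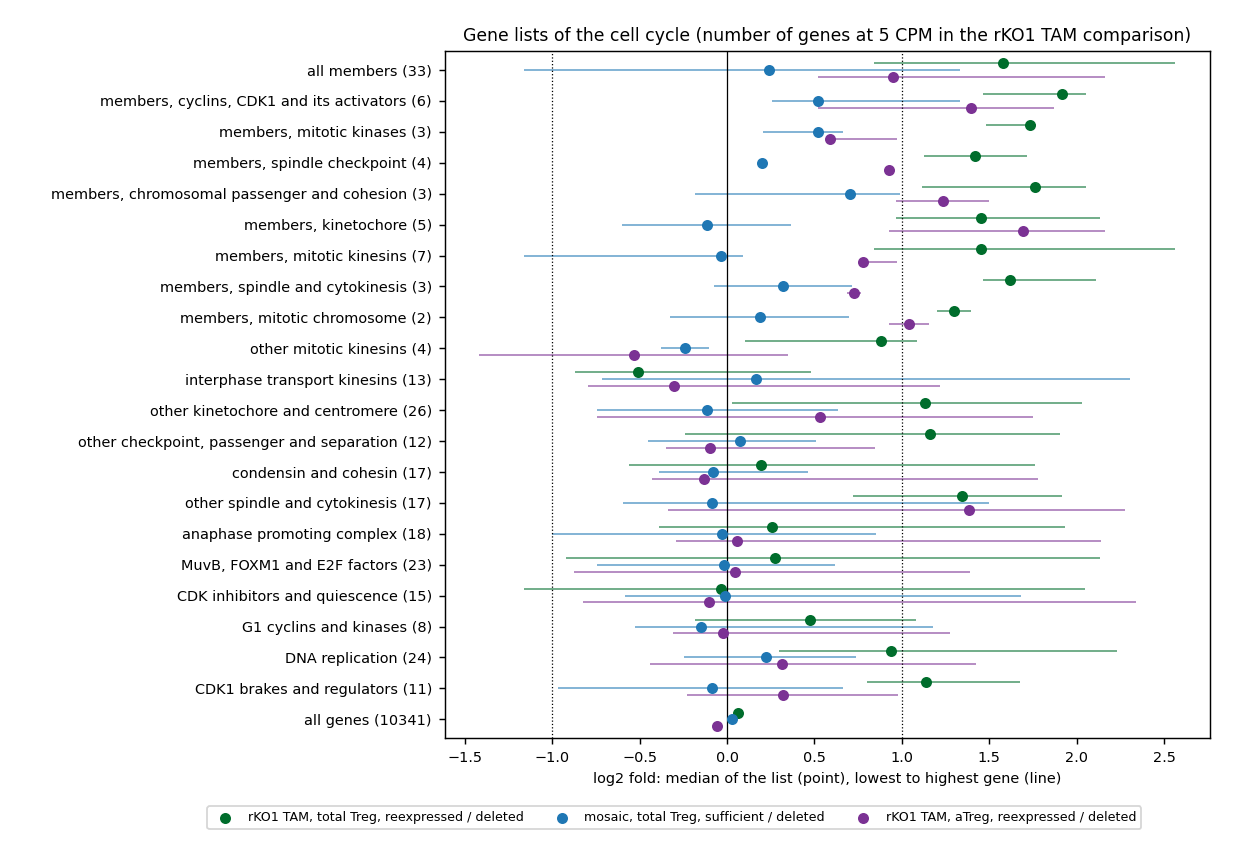
Median log2 fold (points) and range from the lowest to the highest kept gene (lines) for the members by role, for 12 other cell division lists and, as a median only, for all genes; green, rKO1 TAM; blue, mosaic; purple, aTreg. Interphase transport kinesins, at -0.51, are the list with the lowest median in the rKO1 TAM comparison, and the members' 8 roles lie between 1.3 and 1.92.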

How the data were processed

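RNA-seq of 8 sorted Treg libraries was analysed. The authors aligned reads and deposited gene FPKM values; the submitters' processing notes name HISAT2 2.0, StringTie 1.3.3b, featureCounts 1.5.0-p3 and mm10. The deposited headers do not name the unit, which was read from the values. Dividing FPKM times exon length (GENCODE M21) by the value of 1 read gave whole reads within 0.02 in every library for 93.5% of 26020 total Treg genes and 100% of 21242 aTreg genes. For other genes, 4 members among them (Cdc25c, Ndc80, Kif11 and Kif20a), the smallest length giving whole reads was used. Each total is a library's depth. TMM factors (trims of 30% and 5%) were computed in each experiment with Python 3.11.15, NumPy 2.4.6, SciPy 1.17.1 and pandas 2.3.3. Folds used a prior of 0.125 reads. The code was tested on simulated data. Members, lists and named genes (all 35 members; of each other list the 3 highest and 3 lowest folds in the rKO1 TAM comparison) were chosen with earlier results of these data known. Of the genes this rule names, 1 is not reported here. Because each group has 1 library, a fold threshold stood in for the planned test. Promoters came from RefSeq. Kif20a, Ccna2, Tpx2, Aurkb and Cdc25c had no window.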

Additional observations from a re-analysis of the deposited data

Results flagged for a closer look

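The members Kif20a, Ndc80, Top2a and Spc25 differed in opposite directions in the rKO1 TAM and mosaic comparisons, with counting intervals that exclude a fold of 1 in both. Of the 25 members kept in both comparisons 16 had the same sign, beside 64.7% of the 9657 genes kept in both. Opposite directions were thus about as common among the members as among all genes. The difference between the comparisons was not tested, since each rests on 1 library a side. The reads of Kif20a and Ndc80, and so their intervals, also rest on the smallest exon length giving whole reads. Kif20a was at -1.16 log2 in mosaic sufficient over deleted and 0.84 in rKO1 TAM reexpressed over deleted. The same pair of values was -0.60 and 0.97 for Ndc80, -0.32 and 1.20 for Top2a and -0.30 and 1.66 for Spc25.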

How the results depend on the processing

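Medians of the members' log2 folds kept their sign in all 10 comparisons under all 8 alternatives, and moved by less than the counting interval of the summed reads with TMM over the 2 libraries, with a prior of 1 read and without members that share over 10% of their exon bases. With library totals in place of TMM the median was 1.23 in rKO1 TAM, 0.11 in mosaic, -0.15 in untreated rKO1 over WT, 0.91 over mosaic sufficient and 0.91 over mosaic deleted, 0.45 in rKO1 deleted with TAM over untreated, 1.56 in rKO1 TAM reexpressed over WT and 2.42 over mosaic sufficient. With the FPKM as deposited (at least 1 FPKM, pseudocount 0.01) it was 1.52, 0.36, 0.66 (untreated rKO1 over mosaic sufficient), 0.79 (over mosaic deleted), 0.57, 1.65 and 2.55 for the same comparisons, 0.93 in WT over mosaic sufficient and 0.88 in aTreg. With no filter it was 1.52 in rKO1 TAM and 0.54 and 0.65 in untreated rKO1 over mosaic sufficient and deleted, and at 1 CPM 1.52 in rKO1 TAM and 0.65 over mosaic deleted. Without the members shown by the study it was 1.47 in rKO1 TAM, 0.037 in mosaic, -0.38 in untreated rKO1 over WT, 0.63 over mosaic sufficient, 0.65 over mosaic deleted and 2.47 in rKO1 TAM reexpressed over mosaic sufficient.

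Counts of members at least 2-fold higher without those members, which is a shorter list, were 18 in rKO1 TAM, 0 in mosaic, 2 in untreated rKO1 over mosaic deleted, 19 and 20 in the reexpressed library over WT and mosaic sufficient, 5 in WT over mosaic sufficient and 4 in aTreg, and 1 was lower in untreated rKO1 over WT. Without the overlapping members, Kif20a among them, 0 were lower in mosaic. In untreated rKO1 over WT 1 was higher and 1 lower with library totals, and 1 was higher with no filter or at 1 CPM. Over mosaic sufficient 8 were higher with library totals, 2 with deposited FPKM and 3 with no filter or at 1 CPM. With no filter 1 was lower over mosaic sufficient and 1 over mosaic deleted. In rKO1 deleted with TAM over untreated 2 were higher with deposited FPKM, 3 with no filter and 2 at 1 CPM. Library totals moved the share that was higher among all genes past 2-fold from 55.0% to 78.2% in untreated rKO1 over WT, from 47.8% to 78.7% over mosaic sufficient, from 54.2% to 73.5% over mosaic deleted, from 47.5% to 34.1% with TAM over untreated and from 56.8% to 46.0% in reexpressed over WT. Library totals also moved the median of all genes, to 0.27 in untreated rKO1 over WT, 0.29 over mosaic sufficient and 0.19 over mosaic deleted, and relative to it the members stood at -0.42, 0.62 and 0.72.

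No paired analysis was possible because every condition has 1 library, and no fit without a library exists for the same reason. Depth limits members with few reads, such as Nek2 and Kif11.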
